A study of Rattus norvegicus with 46 samples.

Results

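The 9 genes described here control how skeletal muscle takes up glucose, burns it and stores it as glycogen: Slc2a4, Hk2, Pfkm, Pfkfb1, Fbp2, Gpd1, Gys1, Pygm and Phkg1, measured in the paralysed gastrocnemius of the rat. They were chosen by name, with earlier results of these data known. Each is represented by the probe set that the platform annotation pairs with it. Each of the 9 has exactly 1 such probe set, so the rule of taking the probe set with the highest mean never had to choose, and all 9 were among the 9289 genes kept for testing. RNA came from the proximal gastrocnemius of 23 female Sprague-Dawley rats, with 1 array for each leg and 46 arrays in all. All rats were kept under isoflurane, paralysed with α-cobrotoxin (100 µg to induce the block, then 250 µg per day by infusion) and mechanically ventilated, a model of the intensive care patient whose limb muscles waste. α-Cobrotoxin is a snake toxin that blocks the acetylcholine receptor at the neuromuscular junction, so the nerve cannot activate the muscle or make it contract. In the loaded leg a lever moved the ankle passively at 13.3 cycles per minute, for 6 h in the shortest experiments and otherwise for 12 h per day; the unloaded leg of the same rat was left still. The groups are loaded and unloaded legs of 13 rats studied for 6 h to 4 d, of 4 rats studied for 5 to 8 d and of 6 rats studied for 9 to 14 d. Ages are not given in the labels, each window pools rats of different durations, and rats without paralysis are not part of the comparison, so a change with time is always relative to rats already paralysed for 6 h to 4 d. A rat is called here by the label number of its unloaded leg.

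Slc2a4 encodes GLUT4, the glucose transporter that insulin and contraction bring to the surface of the muscle fibre, and Hk2 encodes hexokinase II, which traps the glucose as glucose 6-phosphate. From there glucose is either committed to glycolysis by phosphofructokinase (Pfkm, the muscle subunit) or stored as glycogen by glycogen synthase (Gys1) and released again by muscle glycogen phosphorylase (Pygm), which phosphorylase kinase (catalytic subunit Phkg1) switches on. Pfkfb1 makes and removes fructose 2,6-bisphosphate, an activator of phosphofructokinase, Fbp2 is the muscle fructose bisphosphatase that runs the phosphofructokinase step backwards, and Gpd1 is the cytosolic glycerol 3-phosphate dehydrogenase that draws on a glycolytic intermediate and carries reducing equivalents to the mitochondrion. Of this machinery, phosphofructokinase and muscle phosphorylase are most abundant in fast glycolytic fibres, of which the gastrocnemius holds many.

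Across the series, 8 of these genes, all except Hk2, were lower in the later windows than at 6 h to 4 d, in loaded and unloaded legs alike, while Hk2 was higher in 3 of the 4 comparisons. None of the 9 passed the test between loaded and unloaded legs. Values are log2 expression, on which a difference of 1 is a change of 2-fold. A gene was called where limma's Benjamini-Hochberg adjusted p over the 9289 genes was under 0.05.

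Promoters of the member with the largest fall in loaded legs (Pfkfb1), of Hk2 and of muscle phosphorylase (Pygm) are shown as examples of a member that fell far, of the one that rose and of one that fell little. Sequences and starts are from RefSeq (build GRCr8), which was matched by symbol for 6 members, Hk2, Pfkm, Pfkfb1, Gys1, Pygm and Phkg1, and not for Slc2a4, Fbp2 and Gpd1. Each runs from 250 bases before the annotated start to 50 after it, 5′ to 3′. Capitals mark the E-box CANNTG, the core element bound by the myogenic factors of the MyoD family among others.
Pfkfb1 promoter, chrX:22941926-22942225, strand +: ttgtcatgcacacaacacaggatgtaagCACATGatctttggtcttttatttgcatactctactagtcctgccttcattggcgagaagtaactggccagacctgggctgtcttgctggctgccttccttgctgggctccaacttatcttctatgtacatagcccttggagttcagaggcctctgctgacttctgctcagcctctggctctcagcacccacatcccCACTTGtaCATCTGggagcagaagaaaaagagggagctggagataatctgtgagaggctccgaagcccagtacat
Hk2 promoter, chr4:116841226-116841525, strand -: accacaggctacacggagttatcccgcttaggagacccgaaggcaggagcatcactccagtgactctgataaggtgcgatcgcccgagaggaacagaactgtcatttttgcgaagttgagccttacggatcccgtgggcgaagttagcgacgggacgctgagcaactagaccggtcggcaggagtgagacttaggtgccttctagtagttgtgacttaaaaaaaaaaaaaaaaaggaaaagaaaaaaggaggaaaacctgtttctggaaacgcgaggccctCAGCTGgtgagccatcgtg
Pygm promoter, chr1:213119555-213119854, strand +: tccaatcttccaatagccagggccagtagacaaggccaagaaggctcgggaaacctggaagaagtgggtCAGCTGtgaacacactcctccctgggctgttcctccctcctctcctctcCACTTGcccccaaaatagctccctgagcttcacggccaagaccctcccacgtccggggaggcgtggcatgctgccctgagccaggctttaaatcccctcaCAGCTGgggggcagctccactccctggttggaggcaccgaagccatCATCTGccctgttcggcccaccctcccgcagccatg
Both strands were searched for 5 motifs. CANNTG occurred in 5 of the 6 promoters (all except Pfkm), against 72.1% of all 33469 promoters of the same 300 bases. Its form CAGCTG, counted within CANNTG as well, occurred in 3 of the 6 (Hk2, Gys1 and Pygm), against 15.1% of all promoters. The core motif of MEF2 and the MEF3 motif TCAGGTTTC, a site of the sine oculis homeobox family, occurred in none of the 6, against 3.84% and 0.451% of all promoters. The GC box GGGCGG occurred in Gys1 alone, against 33.1% of all promoters. These matches describe letters in a window of fixed length and were not tied to binding.

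Before the members are taken one by one, some arrays need naming. Rats 35 and 37, both of the 6 h to 4 d group, had levels of 7 members (all except Hk2 and Pygm) below those of the other 11 rats of that group in both legs. They stay in the group their labels give, and results are also given without them. The loaded legs of rats 21 and 27 were the most alike of all 1035 pairs of arrays, with an SD of their log2 difference of 0.145 against a median of 0.617 over all pairs. Both were kept as separate rats, and leaving either out changed no call on a member. The muscle identity was as labelled: 6 of 8 muscle genes were measured, with a mean log2 level of 13.12 to 13.55 over all arrays. Each array's label also ends in a code whose meaning the labels do not state. Of 5 codes, 3 hold only rats of 6 h to 4 d, 1 holds only rats of the later windows, and code 3 spans all 3 windows. Code 3 holds 10 rats, rats 35 and 37 among them. The code and the window therefore overlap strongly. Values with the code as a block and within code 3 are given for the members and for the lists at 9 to 14 d. In both settings the difference from the first window rests on the same 4 rats of that window, 31, 33, 35 and 37. The settings are thus not separate checks, and a smaller fall there cannot be told apart from the low levels of rats 35 and 37. Shares of all genes called are those of the fit with all rats and without the code.

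**Figure D1:**
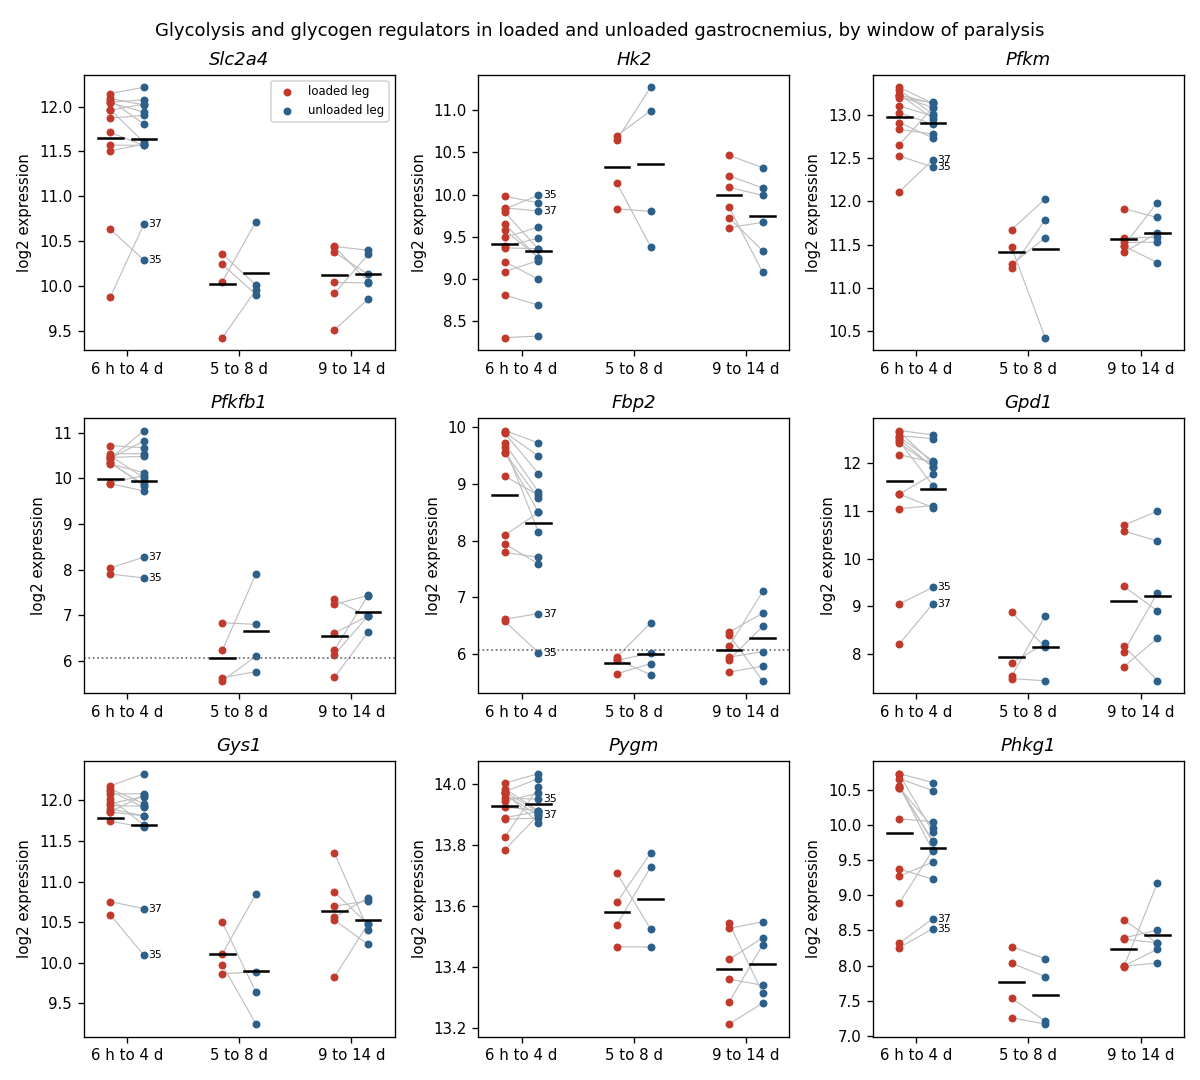
Log2 expression (vertical axes, scaled separately) of the 9 genes in loaded legs (red) and unloaded legs (blue) by window, with 13, 4 and 6 rats; grey lines join the legs of a rat, black bars are group means, the dotted line is the lowest array median (6.07) and the unloaded legs of rats 35 and 37 are numbered. All genes except Hk2 sit lower in both later windows than in most rats of 6 h to 4 d, and red and blue points of a window overlap.

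Glucose uptake was represented by Slc2a4. Slc2a4 at 6 h to 4 d ran from 9.87 to 12.15 (median 11.96) in loaded legs, and from 10.29 to 12.22 (median 11.81) in unloaded legs. Slc2a4 at 5 to 8 d was 10.24, 10.05, 9.42 and 10.36 in the loaded legs of rats 41, 43, 53 and 55, and 9.90, 10.72, 9.96 and 10.01 in their unloaded legs. Slc2a4 at 9 to 14 d ran from 9.51 to 10.44 (median 10.21) in loaded legs and from 9.85 to 10.40 (median 10.09) in unloaded legs. The windows overlapped only through rats 35 and 37, with 10.63 and 9.87 in loaded and 10.29 and 10.69 in unloaded legs, since the other 11 rats were at 11.51 or more. Slc2a4 fell in all 4 comparisons with the first window. At 9 to 14 d it averaged 10.12 ± 0.37 (SD, n = 6) in loaded legs against 11.65 ± 0.67 (SD, n = 13) at 6 h to 4 d, a log2 difference of -1.53 (SE 0.27, limma adjusted p = 7.92e-05) or 2.90-fold. In unloaded legs the same difference was -1.50 (SE 0.22, adjusted p = 9.20e-06). For Slc2a4 at 5 to 8 d it was -1.64 in loaded legs (adjusted p = 3.21e-04) and -1.49 in unloaded legs (adjusted p = 1.19e-04). The level of 9 to 14 d differed from that of 5 to 8 d by 0.10 in loaded and -0.01 in unloaded legs, within the spread of either group. With the label code as a block the falls at 9 to 14 d were -0.91 (adjusted p = 0.0468) in loaded and -0.97 (adjusted p = 0.0122) in unloaded legs. Those at 5 to 8 d were no longer called (-1.04 and -0.95, adjusted p = 0.0755 and 0.0545). Within code 3 Slc2a4 was at -1.01 in loaded and -1.04 in unloaded legs at 9 to 14 d (adjusted p = 0.156 and 0.0828).

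Hk2, the next step, was the only member of the 9 whose difference from the first window was positive. Hk2 at 6 h to 4 d ran from 8.30 to 9.98 (median 9.49) in loaded legs and from 8.32 to 9.99 (median 9.35) in unloaded legs. Hk2 at 5 to 8 d was 10.14, 9.83, 10.65 and 10.70 in the loaded legs of rats 41, 43, 53 and 55, and 9.38, 9.80, 11.27 and 10.99 in their unloaded legs. Hk2 at 9 to 14 d ran from 9.61 to 10.47 (median 9.97) in loaded and from 9.07 to 10.32 (median 9.83) in unloaded legs. All windows overlapped in both legs, and the highest values of the later windows came from rats 53 and 55 at 5 to 8 d and 57 and 59 at 9 to 14 d, the 4 rats of code 5. Hk2 rose at 5 to 8 d by 0.92 (SE 0.23, adjusted p = 0.00358, 1.89-fold) in loaded legs and by 1.04 (SE 0.30, adjusted p = 0.00973, 2.05-fold) in unloaded legs. At 9 to 14 d it rose in loaded legs by 0.58 (SE 0.20, adjusted p = 0.0220), while in unloaded legs the difference was 0.42 (SE 0.26, adjusted p = 0.190). These calls rest on few rats. The rise in unloaded legs at 5 to 8 d was not called without rat 53 (0.73, adjusted p = 0.0867) or rat 55 (0.83, adjusted p = 0.0720). That in loaded legs at 9 to 14 d was not called without rat 57 (0.49, adjusted p = 0.0709) or rat 59 (0.54, adjusted p = 0.0508). With the code as a block none of the 4 differences was called, at 0.46 and 0.23 in loaded legs and 0.38 and -0.07 in unloaded legs at 5 to 8 d and at 9 to 14 d. Within code 3 the difference at 9 to 14 d was 0.25 in loaded and 0.06 in unloaded legs (adjusted p = 0.554 and 0.914).

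Pfkm, the committing enzyme of glycolysis, fell in all 4 comparisons and its groups did not overlap in any of them. Pfkm at 6 h to 4 d ran from 12.11 to 13.31 (median 13.10) in loaded legs and from 12.39 to 13.14 (median 12.98) in unloaded legs. Pfkm at 5 to 8 d was 11.47, 11.27, 11.23 and 11.67 in the loaded legs of rats 41, 43, 53 and 55, and 10.43, 11.58, 11.79 and 12.03 in their unloaded legs. Pfkm at 9 to 14 d ran from 11.41 to 11.92 (median 11.51) in loaded and from 11.29 to 11.99 (median 11.61) in unloaded legs. Every leg of the later windows thus lay below every leg of the first on the same side, rats 35 and 37 included, and the lowest value was the unloaded leg of rat 41. The Pfkm difference at 9 to 14 d from 6 h to 4 d was -1.40 (SE 0.14, adjusted p = 1.46e-07, 2.64-fold) in loaded and -1.27 (SE 0.17, adjusted p = 2.70e-06, 2.40-fold) in unloaded legs. For Pfkm at 5 to 8 d it was -1.56 (adjusted p = 1.55e-06) in loaded and -1.45 (adjusted p = 8.57e-06) in unloaded legs. All 4 calls held with the code as a block, at -1.45 to -1.19. Within code 3 both at 9 to 14 d held (-1.22 in loaded legs, adjusted p = 0.0196, and -1.07 in unloaded legs, adjusted p = 0.0328).

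Pfkfb1, the bifunctional enzyme that sets fructose 2,6-bisphosphate, had the largest fall of the 9 in loaded legs in both later windows. Pfkfb1 at 6 h to 4 d ran from 7.90 to 10.72 (median 10.35) in loaded legs and from 7.82 to 11.05 (median 10.06) in unloaded legs. Pfkfb1 at 5 to 8 d was 5.64, 6.24, 5.57 and 6.84 in the loaded legs of rats 41, 43, 53 and 55, and 5.77, 7.91, 6.11 and 6.80 in their unloaded legs. Pfkfb1 at 9 to 14 d ran from 5.65 to 7.35 (median 6.43) in loaded and from 6.64 to 7.44 (median 6.99) in unloaded legs. The groups overlapped only in unloaded legs at 5 to 8 d, where rat 43 (7.91) lay above rat 35 (7.82), the lowest of the first window. The Pfkfb1 difference at 9 to 14 d was -3.44 (SE 0.38, adjusted p = 2.99e-07) in loaded and -2.87 (SE 0.38, adjusted p = 2.71e-06, 7.29-fold) in unloaded legs. For Pfkfb1 at 5 to 8 d it was -3.91 (adjusted p = 2.29e-06) in loaded and -3.29 (adjusted p = 8.39e-06) in unloaded legs. In each leg 2 of the 4 arrays at 5 to 8 d, and 2 of the 6 loaded legs at 9 to 14 d, were no higher than their own array's median, so no fold is given for these groups. The calls held with the code as a block, at -3.35 and -2.76 in loaded and -2.24 and -1.82 in unloaded legs at 5 to 8 d and at 9 to 14 d. Within code 3 the fall at 9 to 14 d was called in loaded legs (-2.88, adjusted p = 0.0227) and was -1.90 in unloaded legs (adjusted p = 0.0546).

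Fbp2, the fructose bisphosphatase of muscle, varied widely within the first window. Fbp2 at 6 h to 4 d ran from 6.58 to 9.94 (median 9.54) in loaded legs and from 6.03 to 9.72 (median 8.50) in unloaded legs. Fbp2 at 5 to 8 d was 5.89, 5.95, 5.91 and 5.65 in the loaded legs of rats 41, 43, 53 and 55, and 6.02, 6.55, 5.64 and 5.83 in their unloaded legs. Fbp2 at 9 to 14 d ran from 5.68 to 6.39 (median 6.04) in loaded and from 5.53 to 7.11 (median 6.27) in unloaded legs. In loaded legs both later windows lay wholly below the first, and in unloaded legs they overlapped it through rats 35 (6.03) and 37 (6.71). Group means of 5.85 to 6.07 in 3 of the 4 later groups were not above the lowest array median (6.07), so signal over background is not shown there and no fold is given for them. The Fbp2 difference at 9 to 14 d was -2.73 (SE 0.45, adjusted p = 4.06e-05) in loaded and -2.03 (SE 0.41, adjusted p = 3.68e-04) in unloaded legs. For Fbp2 at 5 to 8 d it was -2.94 (adjusted p = 1.77e-04) in loaded and -2.30 (adjusted p = 7.14e-04) in unloaded legs. With the code as a block only the loaded legs at 9 to 14 d kept the call (-1.77, adjusted p = 0.0298). The others were -2.01 (adjusted p = 0.0501), -1.32 (adjusted p = 0.185) and -1.11 (adjusted p = 0.131) for loaded legs at 5 to 8 d and unloaded legs at 5 to 8 d and 9 to 14 d. Within code 3 Fbp2 at 9 to 14 d was at -1.85 in loaded and -1.16 in unloaded legs (adjusted p = 0.108 and 0.292).

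Gpd1, the glycerol 3-phosphate dehydrogenase, had the largest SD of the members at 9 to 14 d, in both legs (1.32 in loaded and 1.31 in unloaded). Gpd1 at 6 h to 4 d ran from 8.22 to 12.69 (median 12.42) in loaded legs and from 9.06 to 12.60 (median 11.92) in unloaded legs. Gpd1 at 5 to 8 d was 7.49, 7.53, 7.82 and 8.88 in the loaded legs of rats 41, 43, 53 and 55, and 7.44, 8.80, 8.22 and 8.14 in their unloaded legs. Gpd1 at 9 to 14 d was 7.73, 8.18, 9.42, 8.04, 10.58 and 10.70 in the loaded legs of rats 45, 47, 49, 51, 57 and 59, and 8.33, 7.45, 8.91, 9.29, 10.37 and 10.999 in their unloaded legs. In the last window rats 57 and 59 were highest in both legs. They lay above rats 35 and 37 of the first window, which had 9.05 and 8.22 in loaded and 9.40 and 9.06 in unloaded legs. The Gpd1 difference at 5 to 8 d was -3.69 (SE 0.70, adjusted p = 3.51e-04, 12.9-fold) in loaded and -3.31 (SE 0.58, adjusted p = 1.51e-04, 9.90-fold) in unloaded legs, where the groups did not overlap. For Gpd1 at 9 to 14 d it was -2.51 (SE 0.61, adjusted p = 0.00186, 5.71-fold) in loaded and -2.24 (SE 0.50, adjusted p = 9.23e-04, 4.71-fold) in unloaded legs. The level at 9 to 14 d stood above that at 5 to 8 d by 1.18 in loaded and 1.07 in unloaded legs, which did not pass the test (adjusted p = 0.520 and 0.440). With the code as a block the fall at 9 to 14 d was -1.78 (adjusted p = 0.0697) in loaded and -1.74 (adjusted p = 0.0390) in unloaded legs. Both calls at 5 to 8 d held. Within code 3 Gpd1 at 9 to 14 d was at -1.98 in loaded and -2.04 in unloaded legs (adjusted p = 0.192 and 0.111).

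Of the glycogen enzymes, Gys1, muscle glycogen synthase, fell in all 4 comparisons. Gys1 at 6 h to 4 d ran from 10.59 to 12.18 (median 11.94) in loaded legs and from 10.10 to 12.33 (median 11.91) in unloaded legs. Gys1 at 5 to 8 d was 9.87, 10.11, 9.97 and 10.50 in the loaded legs of rats 41, 43, 53 and 55, and 9.89, 10.85, 9.25 and 9.64 in their unloaded legs. Gys1 at 9 to 14 d ran from 9.83 to 11.35 (median 10.63) in loaded and from 10.23 to 10.80 (median 10.48) in unloaded legs. The first window overlapped the later ones only through rats 35 and 37, whose loaded legs had 10.59 and 10.75 and unloaded legs 10.10 and 10.67, except in loaded legs at 5 to 8 d, where the groups did not overlap. The Gys1 difference at 5 to 8 d was -1.67 (SE 0.26, adjusted p = 5.33e-05, 3.18-fold) in loaded and -1.79 (SE 0.30, adjusted p = 1.05e-04, 3.46-fold) in unloaded legs. For Gys1 at 9 to 14 d it was -1.14 (SE 0.22, adjusted p = 2.72e-04, 2.21-fold) in loaded and -1.17 (SE 0.26, adjusted p = 8.79e-04, 2.25-fold) in unloaded legs. With the code as a block only the loaded legs at 5 to 8 d kept the call (-1.30, adjusted p = 0.0162). The others were -1.02 in unloaded legs at 5 to 8 d (adjusted p = 0.0826), and -0.74 in loaded and -0.45 in unloaded legs at 9 to 14 d (adjusted p = 0.0691 and 0.302). Within code 3 Gys1 at 9 to 14 d was at -0.74 and -0.61 in loaded and unloaded legs (adjusted p = 0.283 and 0.332).

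Pygm, muscle glycogen phosphorylase, had the smallest differences of the 8 members that fell, yet its groups did not overlap in any of the 4 comparisons. Pygm at 6 h to 4 d ran from 13.78 to 14.00 (median 13.95) in loaded legs and from 13.87 to 14.03 (median 13.91) in unloaded legs. Pygm at 5 to 8 d was 13.71, 13.47, 13.54 and 13.61 in the loaded legs of rats 41, 43, 53 and 55, and 13.52, 13.46, 13.73 and 13.77 in their unloaded legs. Pygm at 9 to 14 d ran from 13.21 to 13.54 (median 13.39) in loaded and from 13.28 to 13.55 (median 13.41) in unloaded legs. No leg of a later window reached the lowest leg of the first on the same side, and rats 35 and 37, with 13.95 and 13.78 in loaded legs and 13.95 and 13.90 in unloaded legs, lay within or at the edge of their own group. The Pygm difference at 9 to 14 d was -0.54 (SE 0.06, adjusted p = 4.35e-07, 1.45-fold) in loaded and -0.53 (SE 0.06, adjusted p = 3.44e-07, 1.44-fold) in unloaded legs. For Pygm at 5 to 8 d it was -0.35 (adjusted p = 5.43e-04) in loaded and -0.31 (adjusted p = 0.00144) in unloaded legs. The order from first to last window was the same in both legs, although 9 to 14 d and 5 to 8 d differed by only -0.19 and -0.21 in loaded and unloaded legs (adjusted p = 0.267 and 0.180). All 4 calls held with the code as a block, at -0.61 to -0.36. Within code 3 those at 9 to 14 d held (-0.56 in loaded legs, adjusted p = 0.0351, and -0.60 in unloaded legs, adjusted p = 0.00674). Its values lie near the highest in the table, 14.38, and how far the signal still follows RNA there was not tested.

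Phkg1, the catalytic subunit of phosphorylase kinase in muscle, fell in all 4 comparisons. Phkg1 at 6 h to 4 d ran from 8.26 to 10.72 (median 10.52) in loaded legs and from 8.53 to 10.60 (median 9.75) in unloaded legs. Phkg1 at 5 to 8 d was 7.26, 8.27, 7.54 and 8.03 in the loaded legs of rats 41, 43, 53 and 55, and 7.17, 8.10, 7.22 and 7.84 in their unloaded legs. Phkg1 at 9 to 14 d ran from 7.98 to 8.65 (median 8.19) in loaded and from 8.04 to 9.17 (median 8.32) in unloaded legs. Rats 35 and 37 were lowest of the first window in both legs, and without them the lowest values there were 8.89 in loaded and 9.22 in unloaded legs, above all legs of the later windows on the same side. The Phkg1 difference at 5 to 8 d was -2.10 (SE 0.40, adjusted p = 3.75e-04, 4.30-fold) in loaded and -2.08 (SE 0.29, adjusted p = 1.26e-05, 4.24-fold) in unloaded legs, where the groups did not overlap. For Phkg1 at 9 to 14 d it was -1.65 (SE 0.35, adjusted p = 5.78e-04, 3.13-fold) in loaded and -1.23 (SE 0.25, adjusted p = 3.70e-04, 2.35-fold) in unloaded legs. The level at 9 to 14 d was above that at 5 to 8 d by 0.46 in loaded and 0.85 in unloaded legs, neither called (adjusted p = 0.688 and 0.201). With the code as a block only the unloaded legs at 5 to 8 d kept the call (-1.58, adjusted p = 0.0113). The others were -1.38 in loaded legs at 5 to 8 d (adjusted p = 0.0994), and -0.93 in loaded and -0.76 in unloaded legs at 9 to 14 d (adjusted p = 0.154 and 0.0956). Within code 3 Phkg1 at 9 to 14 d was at -0.92 and -0.74 in loaded and unloaded legs (adjusted p = 0.295 and 0.299).

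**Figure D2:**
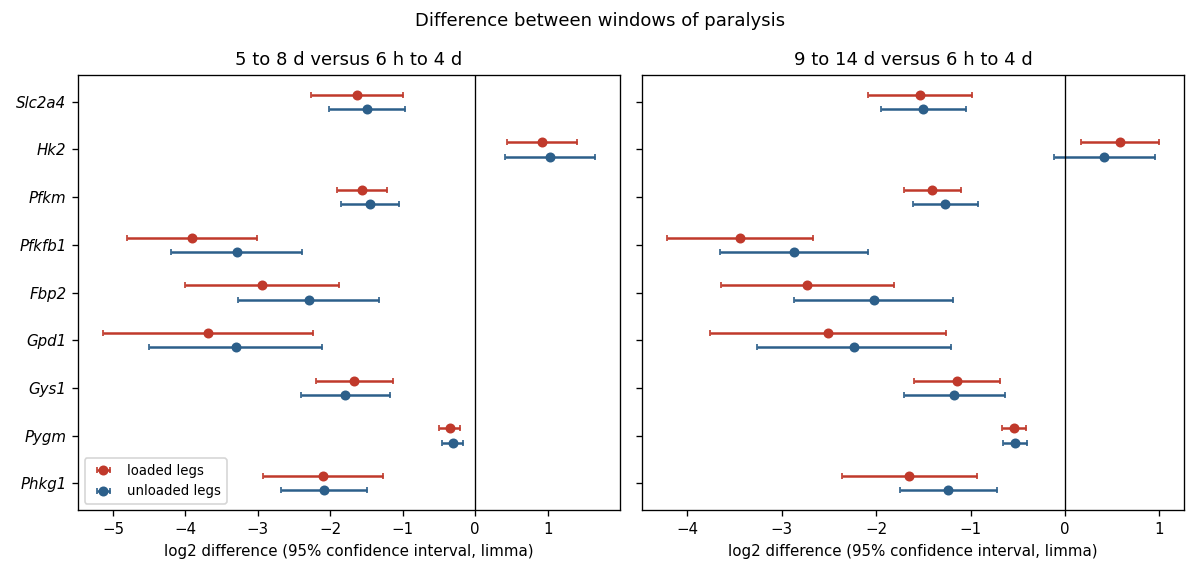
Log2 difference (horizontal axis, points, with 95% confidence intervals from limma) of each gene between 5 to 8 d (left) or 9 to 14 d (right) and 6 h to 4 d, in loaded legs (red) and unloaded legs (blue). The 8 genes other than Hk2 lie left of 0 in all 4 comparisons, from -3.91 for Pfkfb1 to -0.31 for Pygm, and Hk2 lies right of 0.

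Counted together, 8 members fell and 1 rose at 5 to 8 d in loaded legs and likewise in unloaded legs. Over all genes 39.0% were called in loaded and 35.9% in unloaded legs, 12.0% and 12.3% as lower, and 2503 and 2190 of the 9289 as higher. At 9 to 14 d 8 fell and 1 rose in loaded legs, and 8 fell and none rose in unloaded legs. Over all genes 44.2% and 45.6% were called, 15.2% and 16.9% as lower, and 2696 and 2663 of the 9289 as higher. The median difference of the members at 9 to 14 d was -1.53 in loaded and -1.27 in unloaded legs, against 0.08 and 0.07 for all genes. At 5 to 8 d it was -1.67 and -1.79, against 0.06 and 0.05. The members were chosen with earlier results of these data known. Setting their counts and medians against all genes is therefore not an independent test. The groups did not overlap, with the later window lower, for 5 members in loaded and 4 in unloaded legs at 5 to 8 d (2.45% and 2.57% of all genes), and for 4 and 3 at 9 to 14 d (1.95% and 2.52%). Between 9 to 14 d and 5 to 8 d no member was called in either leg by limma, where 0.226% of all genes were called in each. At an unadjusted p under 0.05 there was 1 member in loaded legs (Pygm) and 2 in unloaded legs (Pygm and Phkg1), against 14.4% and 15.6% of all genes. Loaded and unloaded legs come from the same rats, so the 2 legs are not independent repeats of the time course, and both later windows are set against the same 13 rats. The shares above are those of the fit with all rats and without the code, and none is given beside the counts that follow. With the code as a block 5 members were called in each of the 4 comparisons, all lower. Within code 3 alone 3 were called in loaded and 2 in unloaded legs at 9 to 14 d, and none at 5 to 8 d, where only 2 rats remain. Every one of the 8 falls kept its negative sign in both settings. Without rats 35 and 37 the same members were called in all 4 comparisons, and the falls of Gpd1 reached -4.24 and -3.71 at 5 to 8 d and -3.06 and -2.64 at 9 to 14 d in loaded and unloaded legs.

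**Figure D3:**
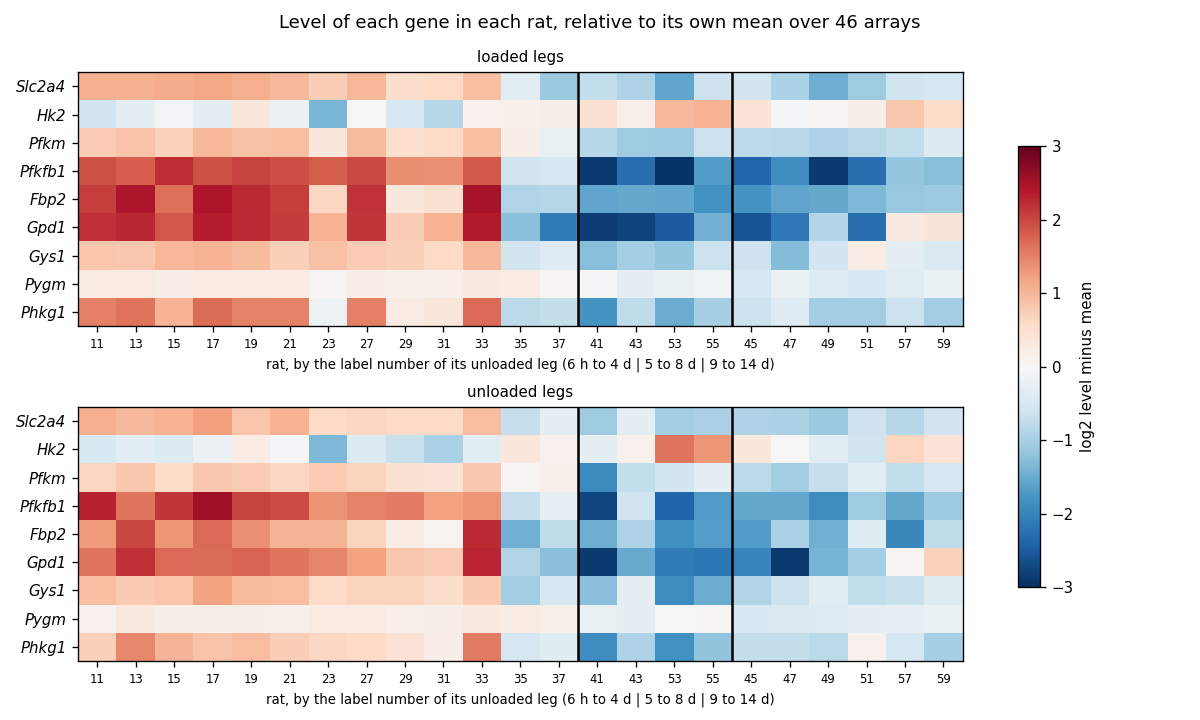
Level of each gene (rows) in the loaded legs (top) and unloaded legs (bottom) of each rat (columns, grouped by window with black dividers), as log2 level minus the gene's mean over 46 arrays, red above and blue below. The blue block starts in rats 35 and 37 of the first window for 6 genes, Hk2 runs the other way, and Gpd1 is close to or above its mean in rats 57 and 59.

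The comparison of loaded with unloaded legs addresses the study's own question, whether passive movement alters the paralysed muscle. Over all 23 rats no member passed limma's test, against 2.90% of all genes. At an unadjusted p under 0.05 there was 1 member, against 18.6% of all genes. That member was Pfkfb1, at -0.22 (SE 0.10, unadjusted p = 0.0323, adjusted p = 0.219) and lower in the loaded leg of 14 of 23 rats. Fbp2 was next, at 0.19 (SE 0.10, adjusted p = 0.297) and higher in the loaded leg of 13 of 23 rats. The other members had log2 differences of -0.02 for Slc2a4, 0.11 for Hk2, 0.0095 for Pfkm, 0.02 for Gpd1, 0.11 for Gys1, -0.02 for Pygm and 0.10 for Phkg1. Their 95% intervals hold for the mean over all 23 rats, with legs paired by label number. They were -0.16 to 0.13 for Slc2a4, -0.02 to 0.24 for Hk2, -0.13 to 0.15 for Pfkm and -0.08 to 0.04 for Pygm. For Gpd1 the interval was wider, -0.23 to 0.27, as it was for Gys1 (-0.06 to 0.28) and Phkg1 (-0.09 to 0.30). For Pfkfb1 it was -0.42 to -0.02 and for Fbp2 -0.01 to 0.40. Within single windows the intervals were wider, such as -0.82 to 0.37 for Gpd1 at 5 to 8 d and -0.0064 to 0.50 for Hk2 at 9 to 14 d.

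**Figure D4:**
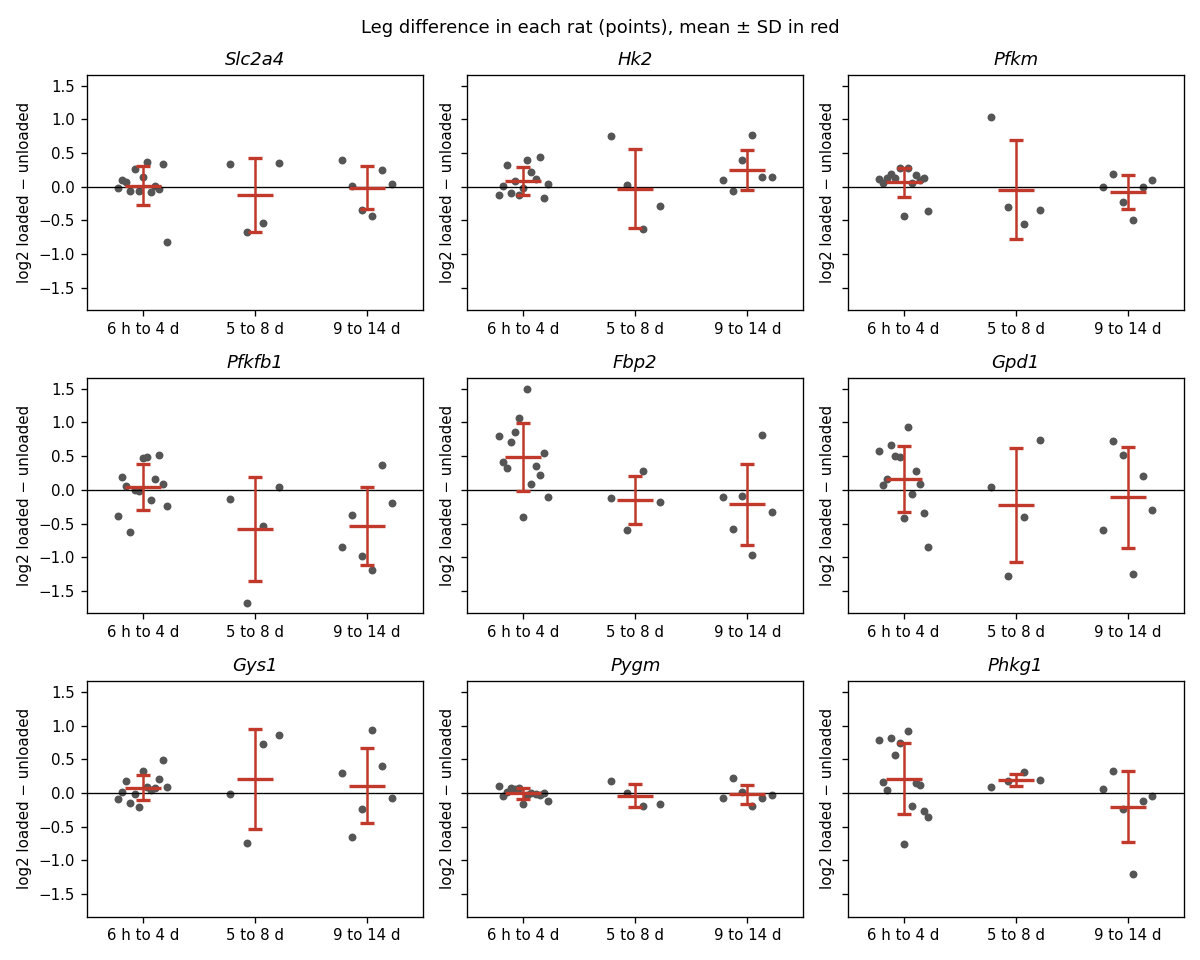
Difference between the loaded and unloaded leg of each rat (points, log2 loaded minus unloaded, all panels on 1 scale) for each gene and window, with the mean ± SD in red. Most points scatter on both sides of 0; Fbp2 at 6 h to 4 d is above 0 in 11 of 13 rats and Pfkfb1 at 9 to 14 d below 0 in 5 of 6.

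By window no member passed limma's test. At an unadjusted p under 0.05 there was 1 member in each, Fbp2 at 6 h to 4 d and Pfkfb1 in both later windows. Over all genes the shares were 11.6%, 6.93% and 13.0%, so these counts are near the share of all genes. Fbp2 at 6 h to 4 d averaged 8.80 ± 1.24 (SD, n = 13) in loaded legs and 8.31 ± 1.06 (SD, n = 13) in unloaded legs, with per-rat differences from -0.40 to 1.50 (median 0.42). It was higher in the loaded leg of 11 of 13 rats, at 0.49 (SE 0.13), with an unadjusted p of 0.00108 and an adjusted p of 0.169, where limma called no gene at all at this window and 11.6% of genes had an unadjusted p under 0.05. The exceptions were rats 23 and 37. The largest differences were those of rats 27 (1.50) and 21 (1.06), whose loaded legs are the near-identical arrays, and rat 27's legs correlated at -0.35 in their deviations from the group means. The Fbp2 value was 0.41 without rat 27, 0.44 without rat 21, 0.33 without the 6 rats of uncertain pairing, each of whose legs correlated better with another rat's, and 0.26 within code 3 (adjusted p = 0.326, 0.183, 0.374 and 0.955). Pfkfb1 was lower in the loaded leg of 3 of 4 rats at 5 to 8 d, at -0.58 (SE 0.23, adjusted p = 0.566) or -0.21 without rat 43, and of 5 of 6 rats at 9 to 14 d, at -0.54 (SE 0.19, unadjusted p = 0.00858, adjusted p = 0.226). At 9 to 14 d its loaded legs averaged 6.54 ± 0.66 and its unloaded legs 7.08 ± 0.31 (SD, n = 6 each), near the array medians of 6.07 to 6.20. Hk2 at 9 to 14 d was higher in the loaded leg of 5 of 6 rats, at 0.25 (SE 0.12, adjusted p = 0.395) or 0.14 without rat 51, and Phkg1 at 6 h to 4 d in 9 of 13, at 0.21 (SE 0.13, adjusted p = 0.534) or -0.09 within code 3. Over the 9 members the differences ran from -0.0063 to 0.49 at 6 h to 4 d, from -0.58 to 0.21 at 5 to 8 d and from -0.54 to 0.25 at 9 to 14 d. In those windows limma called 0%, 0% and 0.269% of all genes.

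Whether the leg difference itself changed with time was tested in the same fit. For Fbp2 the leg difference at 9 to 14 d minus that at 6 h to 4 d was -0.70 (SE 0.23, unadjusted p = 0.00624, adjusted p = 0.486), and at 5 to 8 d minus 6 h to 4 d it was -0.65 (adjusted p = 0.799). For Pfkfb1 the same changes were -0.58 (SE 0.23, adjusted p = 0.569) and -0.62 (adjusted p = 0.800), the second being -0.25 without rat 43. These tests share the rats of 6 h to 4 d, and no gene of the 9289 passed in any of them, although 7.72% and 6.00% had an unadjusted p under 0.05. Rat 41 at 5 to 8 d shows how 1 rat can set such a value: its Pfkm was 11.47 in the loaded and 10.43 in the unloaded leg, whereas the other 3 rats were lower in the loaded leg by 0.31 to 0.56. With array quality weights, which give scattered arrays less say, 4 members were called between legs at 5 to 8 d, Gys1 higher in loaded legs and Hk2, Pfkm and Pfkfb1 lower. The share of all genes called with these weights is not given here, so that count is not read as a result about the members.

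Other genes of the same pathways were read from lists of names, whose counts stand against the shares of all genes called at 9 to 14 d, 2696 of 9289 higher and 15.2% lower in loaded legs, and 2663 of 9289 higher and 16.9% lower in unloaded legs. Of 14 other glycolytic enzymes measured, 9 fell and 1 rose in loaded legs at 9 to 14 d against 6 h to 4 d, and 8 fell and 1 rose in unloaded legs, with medians of -0.67 and -0.71. In unloaded legs those with the lowest adjusted p were Gpi, glucose 6-phosphate isomerase (-0.86, SE 0.13, adjusted p = 1.37e-05), Pkm, pyruvate kinase (-0.94, SE 0.15, adjusted p = 2.70e-05), and Gpd2, the mitochondrial partner of Gpd1 in the glycerol phosphate shuttle (-1.22, SE 0.20, adjusted p = 4.61e-05). Pfkl, the liver-type phosphofructokinase subunit, was the one that rose, by 0.28 (SE 0.10, adjusted p = 0.0330). Of 5 genes of fructose 2,6-bisphosphate and gluconeogenesis 2 fell in each leg, Pfkfb3 (-1.95 in unloaded legs, adjusted p = 3.09e-04) and Pfkfb4 (-1.16 in unloaded legs, adjusted p = 4.83e-04), sister enzymes of Pfkfb1.

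The other glycogen genes moved both ways. Of 21 measured, 8 fell and 5 rose in loaded legs at 9 to 14 d and 8 fell and 6 rose in unloaded legs, with medians of -0.05 and -0.02. In unloaded legs Ppp1ca, a catalytic subunit of the phosphatase that acts on glycogen enzymes, rose by 0.94 (SE 0.08, adjusted p = 1.00e-08), Phkg2, the liver and testis counterpart of Phkg1, by 0.62 (adjusted p = 5.67e-06) and Stbd1, a glycogen-binding protein of glycogen disposal, by 1.25 (adjusted p = 4.54e-05). In the same legs Epm2a, the glycogen phosphatase laforin, fell by 1.08 (adjusted p = 6.24e-06), Ppp1r3a, the muscle glycogen-targeting subunit, fell by 0.80 (adjusted p = 1.09e-05) and Ugp2, which makes UDP-glucose, fell by 0.78 (adjusted p = 2.09e-04). Stbd1 was also called between legs over all 23 rats, higher in the loaded leg by 0.28 (SE 0.06, adjusted p = 0.0167) in 20 of 23 rats. So were Pck1, a gluconeogenic enzyme, lower at -0.41 (SE 0.11, adjusted p = 0.0421) in 18 of 23, and Six4, a muscle transcription factor, lower at -0.22 (SE 0.04, adjusted p = 0.00514) in 22 of 23. Each was the only gene called in its list, of 21, 5 and 16 measured. In the same test 2.90% of all genes were called, and these single calls are not read as a result about the lists.

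Of 11 other glucose transporter and trafficking genes, 4 fell and 3 rose in loaded legs at 9 to 14 d, and 3 fell and 2 rose in unloaded legs. The counts that rose are near or below the share of all genes. In unloaded legs Slc2a1 (GLUT1, the basal transporter) rose by 0.58 (adjusted p = 0.00370) and Akt2, a kinase of insulin signalling, by 0.46 (adjusted p = 4.45e-05). Irs1, the insulin receptor substrate, fell by 1.05 (adjusted p = 0.00116), the insulin receptor Insr fell by 0.53 (adjusted p = 1.13e-04) and the transporter Slc2a8 fell by 0.47 (adjusted p = 5.98e-05). Of 16 genes of AMP kinase and fuel regulators, 7 fell and 2 rose in each leg. In unloaded legs the catalytic subunit Prkaa2 fell by 0.81 (adjusted p = 4.83e-05), the nuclear receptor Nr4a1 fell by 2.03 (adjusted p = 0.00114) and the transcription factor Klf15 fell by 0.62 (adjusted p = 0.00150). The other catalytic subunit, Prkaa1, rose by 0.66 (adjusted p = 3.87e-05) and Six4 by 0.61 (adjusted p = 8.03e-04). With the label code as a block 5 glycolytic genes fell and 1 rose in loaded legs at 9 to 14 d, and 6 fell and 1 rose in unloaded legs. The AMP kinase list then had 1 lower and 1 higher in loaded and 3 lower and 1 higher in unloaded legs, and the glycogen list 2 lower and 3 higher and 5 lower and 6 higher. The transporter list had 1 lower and 1 higher in loaded legs and again 3 lower and 2 higher in unloaded legs, and the fructose 2,6-bisphosphate list had 1 lower in loaded legs and 2 lower and 1 higher in unloaded legs. Within code 3, where fewer rats remain, 1 glycolytic gene fell in loaded and 4 in unloaded legs, 2 glycogen genes fell and 2 rose in unloaded and 1 rose in loaded legs, 1 gene of fructose 2,6-bisphosphate fell in unloaded legs, 1 AMP kinase gene fell in loaded legs and no transporter gene was called by limma.

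**Figure D5:**
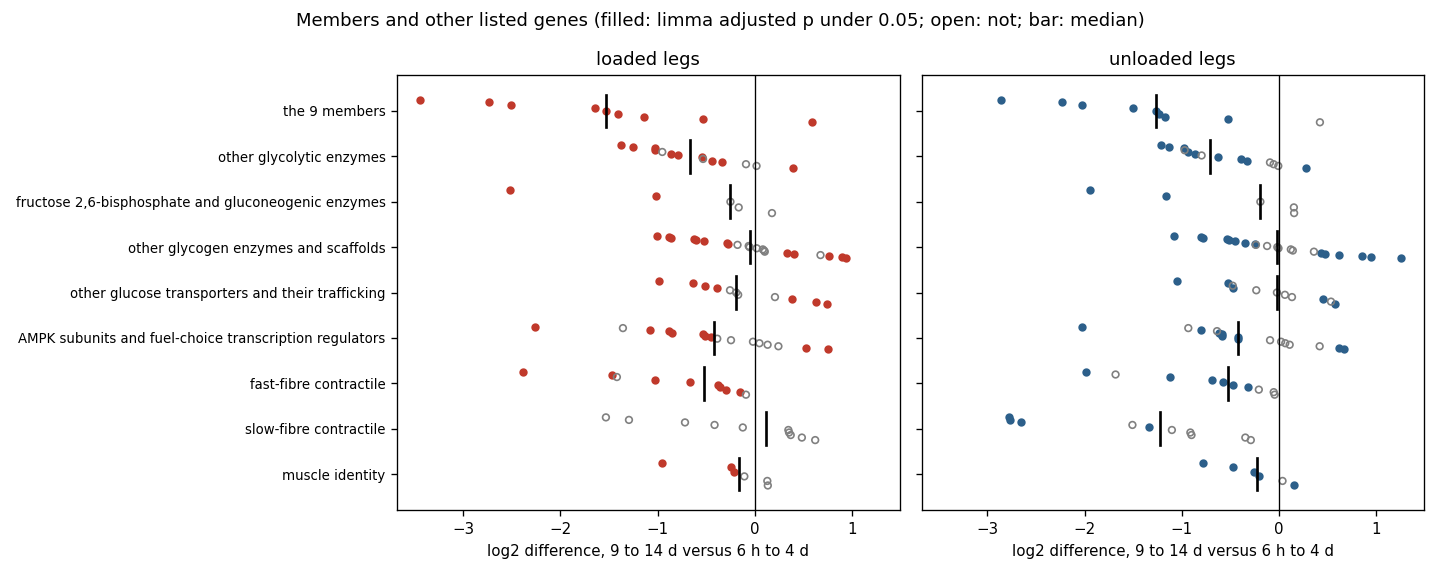
Log2 difference at 9 to 14 d versus 6 h to 4 d (horizontal axis) of the 9 members and of each gene in the other lists (rows), in loaded legs (left) and unloaded legs (right); filled points had a limma adjusted p under 0.05, open points did not, and bars are medians. The members' medians are -1.53 and -1.27, those of the other glycolytic enzymes -0.67 and -0.71, and the other glycogen genes spread on both sides of 0.

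Markers of fibre and cell type were read in the same comparison. Of 10 fast-fibre contractile genes 8 fell in loaded and 6 in unloaded legs at 9 to 14 d, and none rose. Blocked by code 6 and 4 fell, and within code 3 alone 3 and 1. In unloaded legs Mybpc2, fast myosin-binding protein C, was at -1.98 (adjusted p = 7.06e-06), Actn3 at -1.13 (adjusted p = 9.84e-05) and Myoz1 at -0.69 (adjusted p = 6.07e-04). The list's mean level per array ran over 11.91 to 12.75 in loaded legs of 9 to 14 d against 12.48 to 13.28 at 6 h to 4 d, and over 11.95 to 12.68 against 12.33 to 13.28 in unloaded legs. Of 10 slow-fibre genes none was called in loaded legs and 4 fell in unloaded legs, among them Myl2 (-2.66, adjusted p = 0.00609), Myh7 (-2.76, adjusted p = 0.0149) and Tpm3 (-1.34, adjusted p = 0.0161). Without rats 35 and 37, 9 of the 10 fell in unloaded legs. Blocked by code none was called there and the median was 0.19, against -1.22 otherwise, and within code 3 none was called at a median of -0.01. Their mean level differed greatly between rats of 1 window, from 6.89 to 11.81 in loaded and 6.58 to 11.76 in unloaded legs at 6 h to 4 d. Between legs no slow-fibre gene was called in any window. The list's median of loaded minus unloaded was -0.79 at 6 h to 4 d, 0.51 at 5 to 8 d and 0.53 at 9 to 14 d. Fbp2 had the opposite sign in each window, at 0.49, -0.16 and -0.21. So had Slc2a4 (0.02, -0.13 and -0.02), Pfkm (0.06, -0.04 and -0.07), Pfkfb1 (0.04, -0.58 and -0.54) and Gpd1 (0.16, -0.22 and -0.11). Hk2, Gys1, Pygm and Phkg1 shared the list's sign in some windows. The part of fibre makeup in the leg differences was not tested. Of 6 general muscle genes 3 fell in loaded legs, and 4 fell and 1 rose in unloaded legs, with Myom1 at -0.79 (adjusted p = 2.90e-05), Ttn at -0.48 (adjusted p = 1.14e-04), Ckm at -0.20 (adjusted p = 0.00299) and Des at 0.16 (adjusted p = 0.0259) in unloaded legs. Of the general muscle genes 3 and 4 fell in loaded and unloaded legs with the code as a block, and within code 3 none was called.

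Of 11 macrophage markers 3 rose in loaded legs (Adgre1, Csf1r and Lyz2), near the share of all genes, and 5 in unloaded legs (those and Cd68 and Itgam), and none fell. Blocked by code 1 and 7 rose, and within code 3 none was called. The macrophage list's mean level ran over 7.33 to 9.37 in loaded legs of 9 to 14 d against 7.23 to 8.65 at 6 h to 4 d, and over 7.61 to 9.78 against 7.24 to 8.41 in unloaded legs. At 5 to 8 d 2 of the 11 macrophage markers fell and none rose in each leg. Over all genes 12.0% were called lower there in loaded and 12.3% in unloaded legs, and 2503 and 2190 of 9289 higher. Of 4 satellite-cell markers 2 rose and 1 fell in loaded legs, and 3 rose and 1 fell in unloaded legs (Myf5, Vcam1 and Itga7 higher, Cdh15 lower), with mean levels of 7.24 to 8.70 against 6.95 to 7.59 and of 7.67 to 8.48 against 7.06 to 7.55. Of 9 fibroblast markers 2 fell in loaded and 3 in unloaded legs at 9 to 14 d, and 5 and 8 at 5 to 8 d. Their mean level at 9 to 14 d was 8.25 to 10.25 in loaded legs against 8.39 to 10.12 at 6 h to 4 d, and 8.22 to 9.54 against 8.18 to 10.06 in unloaded legs. In the blocked fit 2 satellite-cell markers rose and 1 fell in each leg and no fibroblast marker was called. Within code 3 there were 1 satellite-cell marker lower in each leg, 1 higher in unloaded legs, and again no fibroblast marker. Between legs over all 23 rats the fibroblast markers Mfap5 (0.38, adjusted p = 0.0240) and Pi16 (0.40, adjusted p = 0.0399) were called higher in loaded legs and the satellite-cell marker Itga7 lower (-0.41, adjusted p = 0.0195), and Pi16 also at 9 to 14 d (1.07, adjusted p = 0.0258, in 6 of 6 rats). Over all genes 2.90% were called between legs over all rats and 0.269% at 9 to 14 d. The genes of these lists are named after their values were seen. In the remaining lists at 9 to 14 d, 2 of 6 endothelial and 1 of 8 adipocyte markers fell in each leg, 1 of 7 smooth muscle markers fell in loaded legs and 2 fell and 1 rose in unloaded legs, 1 of 3 red cell and platelet markers rose in loaded legs and 1 of 4 Schwann cell markers in unloaded legs. No liver marker passed the filter on dim values. The part of fibre and cell-type makeup in the members' differences was not tested, and in whole muscle fewer cells of a type and less RNA per cell cannot be told apart.

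The genes whose pattern over the 46 arrays came closest to a member were found by the root mean square difference of log2 levels after each gene's own mean was removed. Slc2a4 was closest to Pstk (0.28) and Lgalsl (0.29), Pfkm to Coq10a (0.24) and Wwp1 (0.28), and Gys1 to Pkia (0.31) and Slc16a10 (0.33). Fbp2 was closest to Lpin1 (0.39), a phosphatidate phosphatase, and Mlf1 (0.45), and Phkg1 to Nt5c1a (0.36), a muscle nucleotidase, and Cd1d1 (0.38). Hk2 was closest to Sem1 (0.34) and Scarb2 (0.36). The measure grows with a gene's own SD, so it ranks neighbours of 1 member and does not compare members. Pfkfb1, with an SD of 1.86, was at 0.60 from Lynx1 and 0.61 from Aqp4, the water channel of fast fibres, and Gpd1, also with an SD of 1.86, at 0.71 from Itgb1bp2 and 0.73 from Lpin1. Among the other members the nearest to Slc2a4 was Pfkm (0.36) and the nearest to Gys1 was Slc2a4 (0.37). Pygm, with an SD over arrays of 0.25, was left out, since only members with an SD above the median of 0.31 over all genes are listed.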

How the data were processed

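RNA of loaded and unloaded gastrocnemius was measured on 46 one-colour arrays. The deposited values are log2 expression per probe set, made by the authors with RMA (robust multi-array averaging, which corrects background, quantile-normalises and summarises probes) per the submitters' processing notes; the version is not given in the sources used here. Values of 26208 probe sets ran from 1.92 to 14.38, and array medians from 6.07 to 6.20. Quantile normalisation removes part of a shift common to most genes, and the number of arrays limits the precision.

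The platform annotation names 1 gene for 15088 probe sets. Probe sets brighter than the array median on 4 or more arrays were kept, and a gene was read from its brightest, leaving 9289 genes. Fbp2 passed on 31 of 46 arrays, Pfkfb1 on 40 and the other 7 members on all. Tests used limma 3.58.1 in R 4.3.3, with Benjamini-Hochberg adjustment over all genes: legs in 1 fit with the rat as a block, windows in the 23 loaded or 23 unloaded legs. Scripts were tested on simulated data.

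Rats were paired from label numbers, an odd unloaded leg with the next even loaded leg of the same window and code, which the labels do not state. Checked across genes, the 2 legs' deviations from the group mean had r over 0.1 in 21 of 23 rats (median 0.60, lowest -0.35). In 12 of the 23 rats both legs correlated best with each other within the window, so this check does not settle the pairing. The labels number the legs and name no rat, and each numbered leg has 1 array.

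Members and lists were chosen with earlier results of these data known. Named in the text are all 9 members, and per pathway, fibre and muscle list up to 3 genes called higher and 3 called lower of lowest adjusted p in unloaded legs at 9 to 14 d, plus genes of these lists called for loading over all rats or at 9 to 14 d. Cell-type markers are given as counts and levels, with some named after their values were seen. Single values of a leg difference within a window were given for the members with the lowest unadjusted p. Alternatives were no filter, the mean of a gene's probe sets, cyclic loess, array quality weights, other treatments of the rat block, the label code as a block or code 3 alone, and leaving out rats. Leg comparisons without rats 35 and 37 were added after seeing the data. Promoters are RefSeq's.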

Additional observations from a re-analysis of the deposited data

Results flagged for a closer look

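In each group of 4 or 6 rats, the highest and lowest member values were checked for a gap to the rest that is large for the group's range (Dixon's criterion at 95%). Of 54 groups checked, 4 held such a value, where chance gives about 1 in 20. The unloaded leg of rat 43 had a Slc2a4 level of 10.72 at 5 to 8 d, while the other 3 unloaded legs lay at 9.90 to 10.01. The loaded minus unloaded difference of Pfkm in rat 41 at 5 to 8 d was 1.04, while in the other 3 rats it was -0.56 to -0.31. The loaded leg of rat 59 had a Pfkm level of 11.92 at 9 to 14 d, while the other 5 lay at 11.41 to 11.58, still below the lowest loaded leg of 6 h to 4 d (12.11). The loaded minus unloaded difference of Phkg1 in rat 51 at 9 to 14 d was -1.19, while in the other 5 rats it was -0.24 to 0.33. Their causes were not tested.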

How the results depend on the processing

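All 8 falls with time kept their sign under every alternative run, and no member was called between legs over all 23 rats under any of them. With the label code as a block 5 members were called in each of the 4 comparisons with 6 h to 4 d (9, 9, 9 and 8 otherwise), and within code 3 alone 0 were called at 5 to 8 d in either leg, 3 in loaded and 2 in unloaded legs at 9 to 14 d; fewer rats remain there. Leaving out each rat in turn gave 8 to 9 calls in unloaded legs at 5 to 8 d and in loaded legs at 9 to 14 d, all changes in Hk2. Hk2 in unloaded legs at 9 to 14 d turned to -0.065 with the code as a block (adjusted p = 0.893), and cyclic loess lost its call in loaded legs (0.46, adjusted p = 0.0611). Array quality weights called 4 members between legs at 5 to 8 d, 1 (Hk2) for the change of the leg difference from 6 h to 4 d to 5 to 8 d, and 4 in unloaded legs at 9 to 14 d versus 5 to 8 d; the cause was not tested. The shares of all genes called with weights, with the code as a block or within code 3 are not given here. Leg differences over all rats near 0 changed sign: Gpd1 was -0.0064 with weights, -0.26 in code 3, -0.024 without the 6 rats of uncertain pairing and -0.018 to 0.082 leaving out each rat; Pfkm was -0.030 with weights and -0.037 to 0.035 leaving out each rat; Slc2a4 was 0.0031 without rats 35 and 37 and -0.036 to 0.018 leaving out each rat; in code 3 Fbp2 was -0.15, Phkg1 -0.11, Pygm 0.0017, and Phkg1 at 6 h to 4 d -0.086. Without the replicate block, or with the rat as a random block, 0 members were called between legs, as with it. Cyclic loess moved the split of all genes called: 2243 of 4246 were higher in unloaded legs at 9 to 14 d, against 2663 of 4232 otherwise, and 166 of 349 in loaded legs over all rats, against 100 of 269. In the other comparisons with 6 h to 4 d it gave 1606 of 3253 higher in unloaded legs at 5 to 8 d (2190 of 3337 otherwise), and in loaded legs 1724 of 3366 at 5 to 8 d (2503 of 3620) and 2122 of 4020 at 9 to 14 d (2696 of 4110).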
